A study of Mus musculus with 6 samples.

Results

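The interleukin-1 (IL-1) family genes examined here are 10 cytokine and receptor genes, chosen by name from the 15454 genes of the liver count table: the ligands Il1a, Il1b, Il18 and Il33, the receptor antagonist Il1rn, and the receptor genes Il1r1, Il1r2, Il1rap, Il1rl1 and Il18rap. All 10 had a row in the count table, and 9 passed the filter on low counts among 12411 genes tested. Il1rl1 did not pass. The livers came from male C57BL/6 mice, 8 to 10 weeks old, subjected to warm ischemia of 75% of the liver followed by reperfusion. The I/R group holds 3 liver samples of mice given vehicle solution only. The I/R+Rk2 group holds 3 of mice given ginsenoside Rk2, a saponin of ginseng, in the same vehicle, 2 days ahead of surgery and again as perfusion began. Injections were intraperitoneal, and per the paper the sequenced treated livers came from its higher-dose group. Both groups thus carried the operation. Sham-operated livers were not analysed here, so that every difference is one between treated and untreated injured livers. RNA was extracted from liver tissue without sorting of cells.

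IL-1 cytokines are alarm signals of tissue injury. IL-1α and IL-1β bind the receptor encoded by Il1r1, which recruits the accessory chain encoded by Il1rap and signals through MyD88 and the IRAK kinases to NF-κB. IL-1β and IL-18 are made as precursors that caspase-1 cleaves in inflammasomes, whereas IL-1α and IL-33 are held in cells, largely in the nucleus, and act when released from damaged cells. Signalling is held in check by a receptor antagonist (Il1rn), by a decoy receptor without a signalling domain (Il1r2) and, for IL-18, by a soluble binding protein (Il18bp). In liver, IL-1 drives the acute phase response of hepatocytes and the recruitment of neutrophils.

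Total counts ran from 16809613 to 35618074 per library. Levels are counts per 1000000 (CPM) after TMM scaling of the library sizes, and 3 counts stood for 0.0888 to 0.184 CPM. Differences are log2 fold changes of I/R+Rk2 over I/R from the edgeR quasi-likelihood test, with Benjamini-Hochberg adjustment across all 12411 genes. The median log2 fold change of all these genes was -0.0076. Each library is labelled as a liver sample of its own, but the labels do not say outright that each came from a separate mouse, so p-values measure the spread between these samples, which may in part be technical. Errors of means are standard deviations (SD) over 3 livers.

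Of the 10 genes, 6 were lower in I/R+Rk2 livers by more than 2-fold with an adjusted p under 0.05, namely Il1b, Il1rn, Il1r1, Il1r2, Il33 and Il18rap, and 0 were higher. Among all genes tested, 11.4% were called lower and 3.17% higher by this rule. Without the fold limit, 6 were lower and 2 were higher (Il1rap and Il18), against 23.7% and 20.3% of all genes tested. Il1a passed in neither direction. The livers of the groups did not overlap for 8 of the 9 tested members, 6 lower and 2 higher, where 30.3% and 27.1% of all genes were separated in these directions. The median log2 fold change of the 9 tested members was -2.37. In whole-liver RNA, fewer cells of a type and less RNA per cell cannot be told apart.

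**Figure D1:**
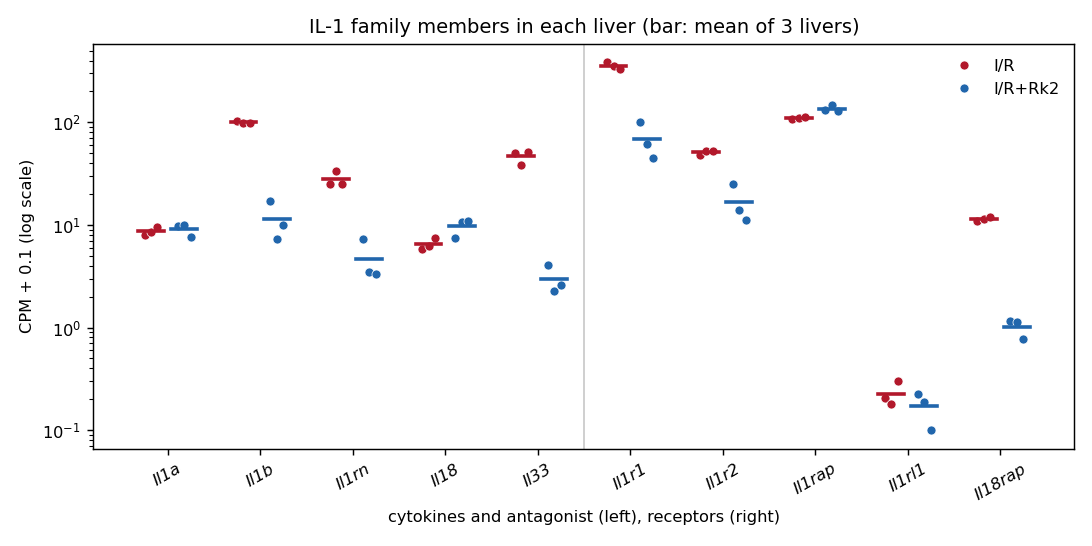
The plot gives the level of each gene as CPM + 0.1 on a log axis, cytokines and antagonist on the left and receptors on the right, with a point for each of the 3 I/R and 3 I/R+Rk2 livers and a bar at the mean. Il1b, Il1rn, Il1r1, Il1r2, Il33 and Il18rap lay lower in every I/R+Rk2 liver, Il1rap and Il18 lay slightly higher, and the groups overlapped for Il1a and Il1rl1.

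The agonists Il1a and Il1b are neighbouring genes on the minus strand of chromosome 2, Il1a at chr2:129299610-129309972 and Il1b at chr2:129364570-129371139 (GRCm38, GENCODE M21). The 250 bases before the RefSeq start of each (GRCm38.p6, minus strand) are printed because these neighbours differed in their response, and those of both Il33 starts (plus strand) because Il33 had the largest fold change of the tested members. Capitals mark matches, on either strand, to the TATA box (TATAAA), to AP-1 (TGANTCA) and to C/EBP (TTNNGNAAT), motifs that were chosen after the promoters had been seen.
Il1b, chr2:129371140-129371389: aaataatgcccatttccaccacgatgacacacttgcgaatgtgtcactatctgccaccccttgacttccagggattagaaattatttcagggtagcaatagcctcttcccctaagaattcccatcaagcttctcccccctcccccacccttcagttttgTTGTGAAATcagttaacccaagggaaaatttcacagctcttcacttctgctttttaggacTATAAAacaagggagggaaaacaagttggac
Il1a, chr2:129309973-129310222: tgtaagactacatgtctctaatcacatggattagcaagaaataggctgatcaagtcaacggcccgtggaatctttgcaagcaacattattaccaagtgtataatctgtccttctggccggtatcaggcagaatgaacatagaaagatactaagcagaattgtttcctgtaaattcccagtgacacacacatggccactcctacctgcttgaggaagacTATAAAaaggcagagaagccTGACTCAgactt
Il33 start 1, chr19:29924863-29925112: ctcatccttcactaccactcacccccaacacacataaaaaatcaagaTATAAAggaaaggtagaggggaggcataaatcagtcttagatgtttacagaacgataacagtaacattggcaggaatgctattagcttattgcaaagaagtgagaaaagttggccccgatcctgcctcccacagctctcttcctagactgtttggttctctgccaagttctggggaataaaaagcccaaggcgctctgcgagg
Il33 start 2, chr19:29945540-29945789: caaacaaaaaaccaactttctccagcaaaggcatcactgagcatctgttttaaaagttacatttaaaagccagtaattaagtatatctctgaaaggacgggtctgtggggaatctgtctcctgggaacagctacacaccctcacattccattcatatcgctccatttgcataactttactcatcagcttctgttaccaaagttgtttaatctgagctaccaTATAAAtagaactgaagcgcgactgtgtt

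The Il1b and Il1a windows each held a TATA box, ending 26 and 27 bases before the start. A C/EBP match ended 83 bases before the Il1b start and an AP-1 match 6 bases before that of Il1a. A TATA box ended 198 bases before the first Il33 start and 24 bases before the second. Of 32851 promoter windows of this length, 12.4% held the TATA box, 6.75% the AP-1 motif, 10.2% the C/EBP motif and 3.9% the NF-κB consensus. All 10 genes matched the promoter table, with 15 starts, and the NF-κB consensus was found in the window of 1 of them, the second start of Il1r1. A match of letters is a description and does not show that a factor binds.

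Il1b, the main secreted agonist, stood at 103, 98.3 and 98.2 CPM in the I/R livers and at 17.2, 7.25 and 9.83 CPM in the I/R+Rk2 livers. The I/R livers were nearly alike, and the highest I/R+Rk2 liver lay far below all of them. The mean fell from 99.9 ± 2.91 to 11.4 ± 5.16 CPM (SD, n = 3), or 8.77-fold, with a fitted log2 fold change of -3.13 (SE 0.30, edgeR adjusted p = 0.000568). Il1a, the agonist that cells keep in store, gave 7.92, 8.51 and 9.41 CPM in I/R and 9.67, 9.98 and 7.55 CPM in I/R+Rk2. These livers overlapped, and the log2 fold change was 0.08 (SE 0.15, edgeR adjusted p = 0.693), with a sign that turned under library size scaling alone (-0.0748). Exons of Il1a and Il1b overlap antisense genes, Gm14023 by 222 bases and Il1bos by 25 bases, and whether the counting used strand was not stated.

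Il1rn encodes the receptor antagonist, which occupies the receptor without signalling. Its level was 24.7, 33.4 and 25.2 CPM in I/R livers and 7.23, 3.35 and 3.19 CPM in I/R+Rk2 livers. Every I/R+Rk2 liver was below every I/R liver, with replicate 1 the highest of its group, as it was for Il1b. The mean fell from 27.8 ± 4.85 to 4.59 ± 2.29 CPM, for which edgeR gave a log2 fold change of -2.59 (SE 0.33, edgeR adjusted p = 0.00135), or 6.03-fold. The antagonist thus fell together with the agonist Il1b, while Il1a did not pass the test.

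Il33 is an alarmin stored in the nuclei of endothelial, mesothelial and stellate cells among others. It was at 50.4, 37.9 and 51.3 CPM in I/R livers and at 3.99, 2.16 and 2.52 CPM in I/R+Rk2 livers. The groups were widely separated. The mean fell from 46.5 ± 7.51 to 2.89 ± 0.971 CPM, and the log2 fold change was -4.01 (SE 0.25, edgeR adjusted p = 0.000240), or 16.1-fold. Its receptor chain Il1rl1, known as ST2, had 2, 2 and 5 counts in I/R and 3, 3 and 0 counts in I/R+Rk2. With 9 counts against 6, the summed level in I/R was 1.59 times that in I/R+Rk2, with an exact 95% interval from 0.504 to 5.41 for counting error only, so a difference in ST2 was not detectable at this depth.

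Il18, whose product stimulates interferon-γ production by T and NK cells, went the other way. It was at 5.73, 6.17 and 7.34 CPM in I/R livers and at 7.44, 10.7 and 10.9 CPM in I/R+Rk2 livers. The groups were just separated, the lowest I/R+Rk2 liver lying slightly above the highest I/R liver. The mean rose from 6.41 ± 0.828 to 9.67 ± 1.93 CPM, and the log2 fold change was 0.59 (SE 0.19, edgeR adjusted p = 0.0381), or 1.5-fold. The call was lost without I/R replicate 1 (adjusted p = 0.112), I/R replicate 2 (0.0976), I/R+Rk2 replicate 2 (0.117) or I/R+Rk2 replicate 3 (0.1) in edgeR, and with library size scaling alone (0.0914).

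Il18rap, the accessory chain of the IL-18 receptor, fell while its ligand rose. It was at 10.7, 11.3 and 11.8 CPM in I/R livers and at 1.05, 1.04 and 0.676 CPM in I/R+Rk2 livers. Both groups were tight and far apart. The mean fell from 11.3 ± 0.512 to 0.921 ± 0.213 CPM, with a log2 fold change of -3.57 (SE 0.19, edgeR adjusted p = 0.000208), or 11.9-fold. The ligand-binding chain Il18r1 had 21, 18 and 8 counts in I/R and no count in any I/R+Rk2 liver. It was not tested. With the I/R+Rk2 group set at 3 counts over the group its summed level was 16.6-fold lower, and the exact 95% interval for counting error began at 12.9-fold.

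The signalling receptor Il1r1 stood at 384, 355 and 332 CPM in I/R livers and at 101, 61.6 and 44.7 CPM in I/R+Rk2 livers. The groups were separated, again with replicate 1 the highest of the I/R+Rk2 livers. The mean fell from 357 ± 26.0 to 69.1 ± 28.9 CPM, and the log2 fold change was -2.37 (SE 0.28, edgeR adjusted p = 0.00112), or 5.16-fold. The decoy Il1r2 gave 48.3, 51.9 and 52.2 CPM in I/R and 24.7, 13.7 and 11.1 CPM in I/R+Rk2. It too was separated, with a smaller difference. The mean fell from 50.8 ± 2.2 to 16.5 ± 7.21 CPM, and the log2 fold change was -1.62 (SE 0.27, edgeR adjusted p = 0.00374), or 3.07-fold.

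Il1rap encodes the chain shared by the IL-1, IL-33 and IL-36 receptors. Its level was 108, 110.2 and 112 CPM in I/R livers and 133, 148 and 128 CPM in I/R+Rk2 livers. The groups did not overlap, and the difference was small. The mean rose from 110.3 ± 1.87 to 136 ± 10.3 CPM, and the log2 fold change was 0.30 (SE 0.08, edgeR adjusted p = 0.0238), or 1.24-fold. Without I/R replicate 1, 2 or 3 the edgeR adjusted p was 0.0538, 0.0588 or 0.0673, without I/R+Rk2 replicate 2 it was 0.0798, and with library size scaling alone it was 0.311. Of 8 tested hepatocyte markers 5 were higher and 1 lower (Fgb), where 20.3% of all genes tested were higher and 23.7% lower. The summed level of this list was 74290 to 84530 CPM in I/R and 104900 to 127400 CPM in I/R+Rk2. Most of this sum was Alb, at 44262 to 52469 CPM in I/R and 68876 to 88052 CPM in I/R+Rk2. The part of hepatocytes in these results was not tested. An exon of Il1rap overlaps the antisense gene Gm20319 by 552 bases.

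The FPKM values (fragments per kilobase of transcript and 1000000 mapped fragments), which take gene length into account, were used to compare levels between genes. In I/R livers Il1b (76.5 ± 8.02 FPKM) and Il1r1 (75.6 ± 10.0) had the highest means and overlapped. Next came Il1rap (41.0 ± 2.19) and Il1r2 (38.3 ± 1.5), which overlapped, then Il33 (19.3 ± 3.50) and Il1rn (16.8 ± 1.42), which also overlapped. Il18 (8.61 ± 0.693), Il1a (4.31 ± 0.201), Il18rap (3.22 ± 0.496) and Il1rl1 (0.0303 ± 0.0145) followed, each apart from its neighbours. The order thus began with an agonist and its receptor and ended with ST2.

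In I/R+Rk2 livers the accessory chain Il1rap led with 51.2 ± 3.42 FPKM and stood apart from all other members. Il18 (11.8 ± 2.06 FPKM), Il1r2 (11.4 ± 5.21), Il1r1 (11.1 ± 5.08) and Il1b (7.99 ± 4.15) formed a run in which neighbours overlapped. Il1a (4.09 ± 0.688), Il1rn (3.05 ± 1.29) and Il33 (1.38 ± 0.520) formed another such run below Il1b. Il18rap (0.174 ± 0.0491 FPKM) and Il1rl1 (0.00980 ± 0.00849) were lowest and apart. By mean FPKM, Il1b therefore moved from the first to the fifth place, and Il18 from the seventh to the second. In I/R+Rk2 replicate 1, Il18 (9.38 FPKM) lay below Il1r2 (17.4), Il1r1 (16.7) and Il1b (12.7), and in replicates 2 and 3 above them.

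Ratios within a library, taken as FPKM + 0.1, cancel the scaling between libraries except for what the pseudocount adds at low levels. The antagonist to agonist ratio Il1rn/Il1b was 0.206, 0.246 and 0.214 in I/R livers and 0.357, 0.411 and 0.435 in I/R+Rk2 livers, a 1.81-fold difference of means on the log2 scale. The ratio was higher in every I/R+Rk2 liver than in any I/R liver on this scale, but with CPM in place of FPKM the log2 difference was 0.55 instead of 0.85 and the groups overlapped (exact permutation p = 0.2). Il1a/Il1b was 0.0509, 0.0583 and 0.0646 in I/R and 0.358, 0.912 and 0.526 in I/R+Rk2, or 9.64-fold higher. The decoy to receptor ratio Il1r2/Il1r1 was 0.458, 0.536 and 0.540 in I/R and 1.04, 0.888 and 1.18 in I/R+Rk2, or 2.02-fold higher. In FPKM, receptor transcripts thus exceeded decoy transcripts in every I/R liver and were close to them in the I/R+Rk2 livers. With CPM in place of FPKM the log2 difference of this ratio was 0.75 instead of 1.01 (exact permutation p = 0.1).

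The ratio of Il18 to its binding protein, Il18/Il18bp, was 1.63, 1.74 and 2.03 in I/R and 3.20, 4.28 and 5.77 in I/R+Rk2, or 2.4-fold higher. Il33/Il1rl1 was 11.3-fold lower in I/R+Rk2, but Il1rl1 lay below the pseudocount of 0.1 in every library, so this ratio follows Il33. In FPKM the groups did not overlap for any of the 5 ratios, and the two-sided exact permutation test gave p = 0.1 for each, adjusted p = 0.1 over the 5, which is the smallest p that 3 against 3 livers allow. None could therefore pass a threshold of 0.05 in this design.

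**Figure D2:**
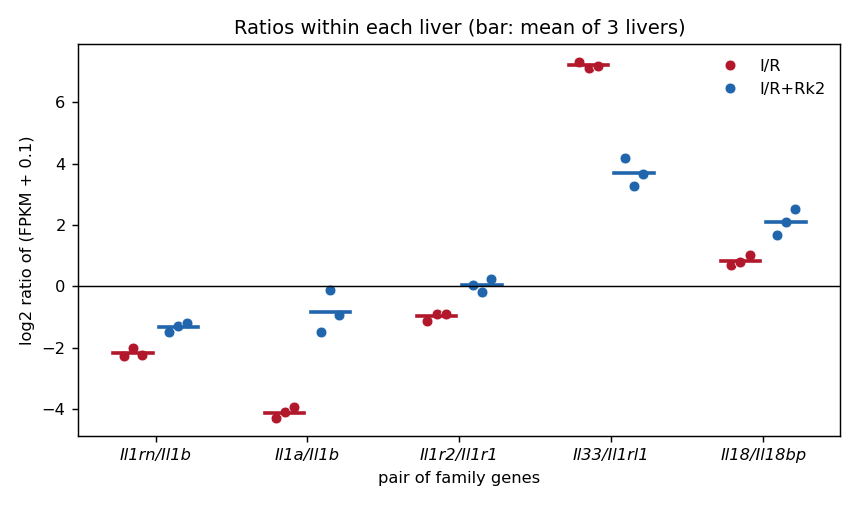
The plot shows the log2 ratio of FPKM + 0.1 for 5 pairs of family genes, with a point for each of the 3 I/R and 3 I/R+Rk2 livers and a bar at the mean. Il1rn/Il1b, Il1a/Il1b, Il1r2/Il1r1 and Il18/Il18bp lay higher and Il33/Il1rl1 lower in every I/R+Rk2 liver.

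The receptor genes form a cluster on chromosome 1, in the order Il1r2 (chr1:40074079-40125231), Il1r1 (chr1:40225080-40317257), Il1rl2, Il1rl1 (chr1:40429570-40465415), Il18r1 and Il18rap (chr1:40515362-40551705), all on the plus strand. Each of the 4 tested genes of this cluster fell, and of these Il1rl2 entered the test only through its I/R counts. Of the genes beside it, which were chosen by position after their values had been seen, Map4k4 also fell (log2 fold change -1.40, edgeR adjusted p = 0.000787), and Mfsd9 on the far side rose (0.86, adjusted p = 0.0247). Il1rap (chr16:26581704-26730117), Il18 (chr9:50554827-50581840) and Il33 (chr19:29925114-29960718) lie on other chromosomes. The members that rose, Il1rap and Il18, both lie outside the receptor cluster, but so do Il1b, Il1rn and Il33, which fell.

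The ligand cluster on chromosome 2 did not move together. Il1b fell while Il1a, its neighbour, did not pass the test. The flanking genes gave log2 fold changes of 0.47 for Chchd5, which rose (edgeR adjusted p = 0.0278), -0.36 for Slc20a1 (0.102) and -1.0 for Sirpa (0.0839). Il1rn (chr2:24336853-24351494, plus strand) lies far from these, beside the IL-36 genes, of which Il1f9 fell. The next gene, Psd4, fell as well (log2 fold change -2.17, edgeR adjusted p = 0.00661), and Hnmt, the tested gene on the other side, rose (0.76, adjusted p = 0.0127).

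**Figure D3:**
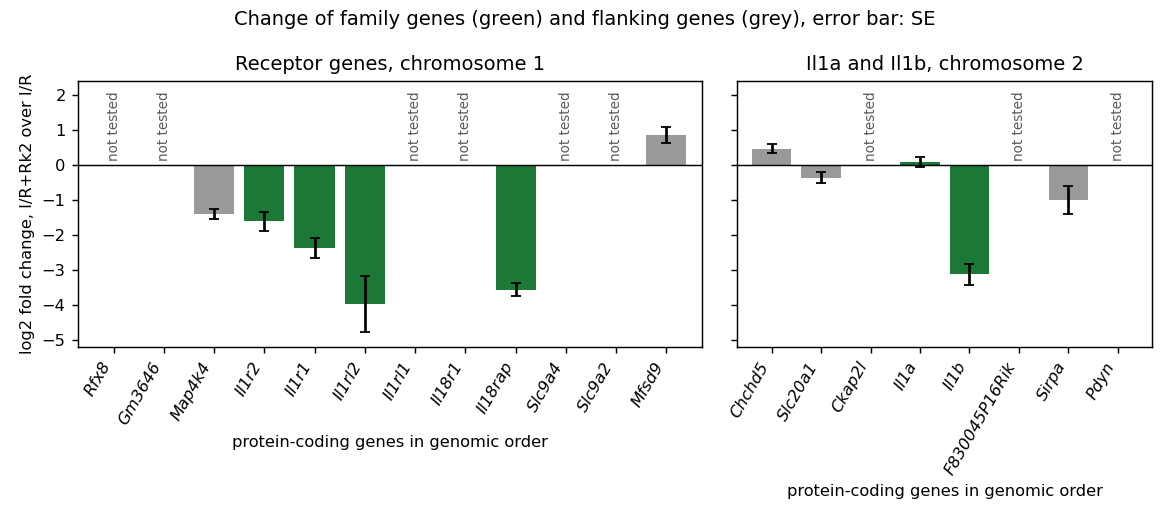
Bars give the log2 fold change of I/R+Rk2 over I/R for protein-coding genes in genomic order around the receptor genes on chromosome 1 and around Il1a and Il1b on chromosome 2, green for family genes and grey for flanking genes, with the SE as error bar. The 4 tested receptor genes lay below 0, whereas Il1a lay near 0 beside Il1b at -3.13.

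Of 11 other family genes, 5 were in the count table and 4 were tested. Il1f9, an older symbol of Il36g, encodes IL-36γ, an agonist of epithelia. It stood at 17.4, 14.2 and 17.3 CPM in I/R and at 2.61, 0.888 and 0.860 CPM in I/R+Rk2. The groups were far apart, with a log2 fold change of -3.48 (SE 0.40, edgeR adjusted p = 0.00101), or 11.2-fold lower. Its receptor Il1rl2 had 13, 18 and 20 counts in I/R and 3, 0 and 0 in I/R+Rk2. Il1rl2 entered the test only through its I/R counts, so its call (edgeR adjusted p = 0.00736) is not independent of the filter. The summed level was 18 times as high in I/R (exact 95% interval 5.81 to 90, counting error only). Ligand and receptor of the IL-36 arm were thus both lower in counts, the receptor at few counts.

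Il18bp, the soluble IL-18 inhibitor, fell from 7.57 ± 0.812 to 4.74 ± 0.685 CPM (log2 fold change -0.67, SE 0.16, edgeR adjusted p = 0.0147), opposite to Il18. Sigirr, an inhibitory receptor of the family, rose from 8.48 ± 1.24 to 14.9 ± 2.19 CPM (0.81, SE 0.16, edgeR adjusted p = 0.00714), a call that was lost when FPKM were fitted. The remaining 6 genes, Il1rapl1, Il1rapl2, Il1f5, Il1f6, Il1f8 and Il1f10, were listed at 0 FPKM in every library.

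**Figure D4:**
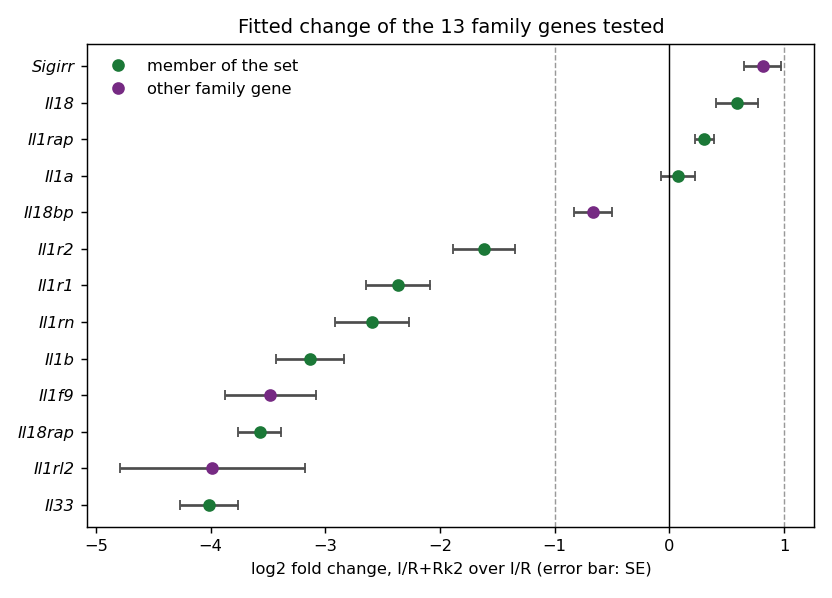
Points give the log2 fold change of I/R+Rk2 over I/R and its SE for the tested members (green) and other family genes (purple), ordered by size, with dashed lines at 2-fold. Il33, Il1rl2, Il18rap, Il1f9 and Il1b lay below -3, and Il1rap, Il18 and Sigirr lay above 0.

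Of 18 genes that carry the signal from the IL-1 receptor, all tested, 6 fell, 0 rose and 12 did not pass, where 23.7% of all genes fell and 20.3% rose, with a median log2 fold change of -0.34 against -0.0076 for all genes. The 1 gene past the 2-fold limit was Irak3, an inhibitory IRAK that limits signalling, which fell from 8.41 ± 2.51 to 1.12 ± 0.388 CPM (log2 fold change -2.89, SE 0.32, edgeR adjusted p = 0.000920). The adaptor Myd88 fell from 35.8 ± 1.96 to 20.1 ± 1.76 CPM (-0.83, SE 0.10, edgeR adjusted p = 0.00120), and the kinase Map3k3 from 18.5 ± 0.119 to 12.1 ± 0.354 CPM (-0.62, SE 0.09, adjusted p = 0.00275).

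Of 16 genes for the cleavage and release of IL-1, 11 were tested, 8 fell, 1 rose and 2 did not pass. With at least 10 counts required in every library, 6 were lower. Among all genes tested, 23.7% fell and 20.3% rose, and this list had a median log2 fold change of -1.24. The inflammasome sensor Nlrp3 fell from 13.2 ± 3.78 to 1.54 ± 0.752 CPM (-3.07, SE 0.37, edgeR adjusted p = 0.00113). Its adaptor Pycard fell from 2.41 ± 0.671 to 0.696 ± 0.157 CPM (-1.81, SE 0.32, edgeR adjusted p = 0.00434), and Casp8, a caspase that can also cleave the IL-1β precursor, from 36.3 ± 2.66 to 21.4 ± 0.767 CPM (-0.76, SE 0.09, adjusted p = 0.00120). Casp1, the IL-1β and IL-18 convertase, was lower at few counts, 21, 36 and 68 in I/R and 8, 9 and 0 in I/R+Rk2 (edgeR adjusted p = 0.0119). Casp1 entered the test only through its I/R counts, as did Panx1, which fell (26, 35 and 38 counts in I/R, 15, 8 and 7 in I/R+Rk2). Gsdmd, which forms the pore through which IL-1β leaves cells, was the gene that rose, by 0.35 (adjusted p = 0.0456), a call lost without any 1 of the 6 libraries. Casp1, Panx1 and Gsdmd were named after their values had been seen.

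Of 21 genes that IL-1 induces in liver, which TNF and IL-6 also induce, 20 were tested, 16 fell and 0 rose. With at least 10 counts required in every library, 15 were lower. Among all genes tested, 23.7% fell and 20.3% rose, and this list had a median log2 fold change of -1.71. In the main fit the 4 that did not pass were Nfkbia (-0.11, edgeR adjusted p = 0.532), Nfkbiz (0.07, 0.629), Zc3h12a (-0.41, 0.108) and Orm2 (-0.49, 0.0626). They were named after their values had been seen. Steap4, a metalloreductase, fell from 1091 ± 195 to 92.4 ± 11.8 CPM (-3.56, SE 0.18, edgeR adjusted p = 0.000198). Lcn2, an iron-sequestering acute phase protein, fell from 633 ± 167 to 48.8 ± 11.9 CPM (-3.70, SE 0.26, edgeR adjusted p = 0.000240), and the chemokine Ccl2 from 48.1 ± 5.95 to 7.29 ± 1.98 CPM (-2.73, SE 0.21, adjusted p = 0.000296). Of 12 genes downstream of IL-33 and IL-18, 2 were tested. Areg, a growth factor that IL-33 elicits, had 37, 36 and 42 counts in I/R and 5, 0 and 0 in I/R+Rk2. It passed as lower (edgeR adjusted p = 0.00479), but entered the test only through its I/R counts. Arg1, an arginase that hepatocytes make for the urea cycle, rose by 0.45 (SE 0.14, adjusted p = 0.0330). Il4, Il5, Il13, Il9 and Retnla were listed at 0 FPKM in every library.

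**Figure D5:**
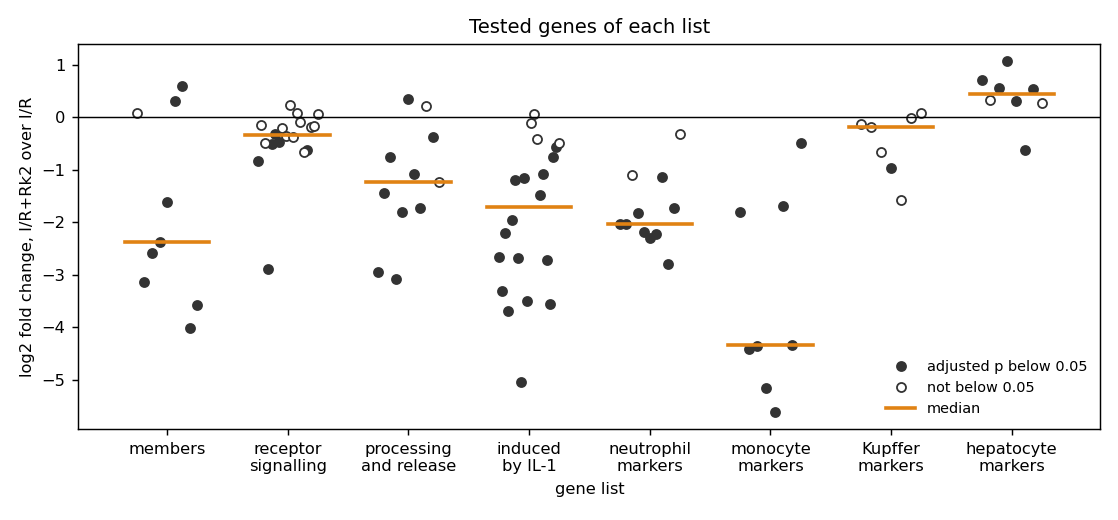
Each point is the log2 fold change of I/R+Rk2 over I/R of 1 tested gene, arranged by list and filled where the adjusted p was below 0.05, with a bar at the median of the list. The lists of processing and induced genes lay mostly below 0 (medians -1.24 and -1.71), and signalling genes lay closer to 0 (median -0.34).

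Neutrophil and monocyte markers were lower together with Il1b, Il1rn, Il1r2 and the other members that fell. By the same rule 23.7% of all genes tested were called lower. Of 12 neutrophil markers 11 were tested and 9 fell, of which Ly6g entered the test only through its I/R counts. Retnlg and Ngp did not pass (edgeR adjusted p = 0.0620 and 0.576). The summed level of the list was 508 to 628 CPM in I/R and 95.2 to 226 CPM in I/R+Rk2, or 3.95-fold lower. S100a8 and S100a9 supplied most of this sum. All 8 monocyte markers fell, of which Vcan (18, 10 and 11 counts in I/R+Rk2) entered the test only through its I/R counts. The list summed to 1597 to 1920 CPM in I/R and 1128 to 1184 CPM in I/R+Rk2, or 1.55-fold lower. Fn1, which hepatocytes also make, supplied most of this sum. Without Fn1 the sum was 175 to 206 CPM in I/R and 9.65 to 17.2 CPM in I/R+Rk2, or 14.4-fold lower. I/R+Rk2 replicate 1 had the highest sum of its group for the neutrophil list and for the monocyte list without Fn1. It also had the highest Il1b, Il1rn, Il1r1, Il1r2 and Il33. Camp, a neutrophil granule gene, was listed at 0 FPKM in every library. The part of these cells in the results was not tested.

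Of 7 Kupffer cell markers 1 fell (Cd5l) and 6 did not pass, with sums of 201 to 245 CPM in I/R and 174 to 265 CPM in I/R+Rk2. Without C6, which hepatocytes also make and which supplied most of this sum, the range was 45.9 to 73.0 CPM in I/R and 34.8 to 44.9 CPM in I/R+Rk2, or 1.53-fold lower with no overlap. Among markers of cells known to hold Il33, 3 of 8 for sinusoidal endothelium fell and 3 rose, with sums of 201 to 213 and 164 to 206 CPM. For stellate cells 3 of 7 fell, with sums of 198 to 260 and 149.9 to 151 CPM. For mesothelium 0 of 5 fell and 1 rose, with sums of 3.67 to 4.90 and 3.32 to 12.96 CPM. These counts stand against 23.7% of all genes called lower and 20.3% called higher by the same rule, and the part of these cells in the fall of Il33 was not tested. Markers of some of the cell types that can carry ST2 or the IL-18 receptor were sparse. Those of mast cells, basophils and innate type 2 cells summed to 0.937 to 1.87 CPM in I/R and 0.184 to 0.378 CPM in I/R+Rk2, with Mcpt4, Mcpt8 and Ms4a2 listed at 0 FPKM in every library, and those of T and NK cells to 0.678 to 1.60 and 1.04 to 1.54 CPM, with Ncr1 listed at 0 FPKM. B cell markers summed to 0.261 to 0.957 and 0.983 to 1.14 CPM. None of the genes of these 3 lists was tested.

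The genes whose pattern over the 6 libraries was most like that of a member were found by the root mean square difference in log2(CPM + 1) after centring, among 9174 genes with a mean of at least 100 counts, and the group difference is the main part of this measure. For Il1b they were the lactate transporter Slc16a3 (0.124), the matrix gene Tnc (0.138) and the neutrophil chemokine Cxcl3 (0.172). For Il33 they included Cxcl3 (0.221) and the estrogen sulfotransferase Sult1e1 (0.257). Sult1e1 had a fitted log2 fold change of -7.52 against -4.01 for Il33, but it entered the fit only through its I/R counts. Sult1e1 had 0, 0.148 and 0 CPM in I/R+Rk2, near the floor, so the size of its fold change is uncertain. There the 1 added to CPM narrows the gap between the 2 genes on the scale used. For Il18 they were Dpyd (0.0326), which degrades pyrimidines, Camk2n1 (0.0493) and Ugp2 (0.0618), which makes UDP-glucose. Cxcl3 was common to the Il1b and Il33 neighbours.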

How the data were processed

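RNA of 6 liver samples (3 I/R, 3 I/R+Rk2) was sequenced. Per the submitters' processing notes, reads were handled with FastQC 0.11.5, HISAT2 2.2.1, SAMtools and StringTie 1.3.3 on mm10. The annotation and strand setting are not given in the sources used here. The authors deposited whole-number counts per gene and FPKM per gene. All per-library columns were assigned by the names they carry. Whether low counts are whole reads or rounded estimates is not stated, so the fit was repeated with counts lowered by 1.

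The count fits used edgeR 4.0.16 under R 4.3.3 (filterByExpr defaults, TMM, quasi-likelihood F test, no covariates, 6 libraries), with Benjamini-Hochberg adjustment over all genes tested. The threshold was a fold change over 2 with an adjusted p under 0.05. SE was the absolute log2 fold change divided by the square root of F. The script was tested on simulated data. Deposited FPKM served for levels between genes, for ratios (pseudocount 0.1, exact permutation test) and for alternative fits with limma 3.58.1. Libraries of a group differed by 31.4 to 74.8 chi-square units per degree of freedom, far more than sampling noise, and each counted as 1 replicate.

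Members and gene lists were chosen with earlier results of these data known. Named were all members, every detected gene among the other family genes, the 3 tested genes with the smallest p of each other list, and the 3 genes most like Il1b, Il33 and Il18. A gene that this rule selects is not reported here. Markers are described as lists, and the single markers named were picked after their values had been seen. Alternatives were other scalings (relative log expression, upper quartile, library size alone), other filters, DESeq2 1.42.0, a replicate block, FPKM fits and leaving out each library. Intervals and floors cover counting error only.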

Additional observations from a re-analysis of the deposited data

How the results depend on the processing

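Il1b, Il1rn, Il1r1, Il1r2, Il33 and Il18rap kept their direction and stayed past the threshold under all 17 alternatives run for each. With library size alone the median of all genes moved from -0.0076 to -0.17, and there the log2 fold change was -0.0748 for Il1a, 0.14 for Il1rap (adjusted p = 0.311) and 0.43 for Il18 (0.0914), so that 0 members were higher. In the FPKM fits Il1a was at -0.0698 (pseudocount 1, with or without a filter at a mean of 1) and -0.0869 (pseudocount 0.1), and Il18 at 0.40 (adjusted p = 0.0623 with the filter, 0.0907 without) and 0.43 (0.0628), so that 1 member was higher in each fit, and 0 other family genes were. Leaving out 1 library gave 0.24 to 0.35 for Il1rap, 0.51 to 0.74 for Il18, and 0 to 2 members higher. By median FPKM, Il1r1 ranked 3 and Il1r2 ranked 4 in I/R+Rk2. Of the 5 ratios, Il1rn/Il1b overlapped between groups with CPM in place of FPKM (log2 difference 0.55, exact permutation p = 0.2), and the others kept p = 0.1 there and with a pseudocount of 1.

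Of the processing genes, 4 instead of 8 were lower in both filtered FPKM fits, and the 1 higher gene became 0 with library size alone, no filter, at least 10 counts in every library, the replicate block and all 3 FPKM fits, and in each fit without 1 library (0 to 0). Of the genes downstream of IL-33 and IL-18, 2 were lower with no filter and in the unfiltered FPKM fit, 0 at 10 counts and in both filtered FPKM fits, and 1 to 2 without 1 library. The higher gene became 0 in the 3 FPKM fits and with library size alone, and 0 to 1 without 1 library. The filters change which genes are tested, and the cause of the other changes was not tested.

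Replicate numbers were shared between groups, but same-numbered libraries did not deviate together (r = -0.0559, 0.0052 and -0.0579). With the replicate block 6 members were lower and 2 higher, with log2 fold changes of -3.22 for Il1b, -4.03 for Il33, 0.58 for Il18 and 0.30 for Il1rap, and no member's call changed.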

Other observations

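The count and FPKM tables did not give the same ratio between groups for every member. The log2 number of counts per FPKM, relative to the library median, was compared between groups over 9055 genes, of which 87.0% differed by less than 0.2. Il1r1 differed by 0.24, from 0.94, 0.97 and 0.92 in I/R livers to 1.15, 1.19 and 1.19 in I/R+Rk2 livers. Il1rn differed by -0.32 and Il1rap by -0.19, whereas Il1a, Il1b and Il18 differed by -0.02, -0.02 and -0.03. The cause was not tested.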
